A study of Mus musculus with 4 samples.

Results

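DNA transposons are among the old, immobile elements of the mouse genome, and 280 of the 1445 repeat subfamilies in the counts table carry the class DNA or DNA?, the question mark being the annotation's own sign of doubt. Each subfamily is one row of the table, written as name, family and class. The 280 rows were taken by that class alone, 250 as DNA and 30 as DNA?, and they fall into 21 families. Of these rows 213 held enough reads to be tested, 54 had reads but stayed under the filter on low counts, and 13 had no read in any library. A count of 0 in a library allows up to 3 counts, which is 2.81 to 3.18 on the scale of normalized counts used below, for counting error alone.

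The study sequenced total RNA from mouse embryonic fibroblasts (MEF cells), cultured connective tissue cells taken from mouse embryos. The 2 untreated libraries came from cells labelled wild-type. In several other assays of the study untreated cells were given the vehicle DMSO alone. Whether this holds for the sequenced untreated cells is not stated. The 2 genistein libraries came from MEF cells exposed to 50 µM of the soy isoflavone genistein, an inhibitor of tyrosine kinases and of DNA topoisomerases, for 24 h. The genotype field of the treated cells reads "Genistein treated" in place of a genotype. The sources do not say whether the 2 libraries of a group came from separate cultures, so the p-values measure the spread between these libraries, which may be technical.

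Library totals lay between 28591958 and 31464284 counts, and repeats took 11.97 to 12.52% of them in the untreated and 13.57 to 14.64% in the genistein libraries. Fibroblast genes were abundant, with summed normalized counts of 390720 to 429204 over 8 markers, although Thy1 was at 0 and Lum at 10 counts or fewer in every library. The epithelial list summed to 718 and 672 normalized counts in the untreated and 118 and 108 in the genistein libraries, nearly all of it Krt14. Blood cell markers summed to 210 and 192 against 546 and 570, endothelial markers to 19.0 and 26.5 against 76.0 and 84.0, and muscle markers to 51.9 and 40.2 against 313 and 294. Defining genes of these lists (Epcam, Krt5, Tie1, Cdh5, Ptprc, Adgre1, Myod1 and Myog) had 1 count or none in each library, Cdh1 had 4 to 8 in both groups, and Pecam1 had 2 and 6 in untreated and 8 and 9 in genistein libraries. Kdr, Csf1r, Cd68 and Des carried most of the higher sums. The part of these markers in the results on transposons was not tested.

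A DNA transposon moves by being cut out of one place and pasted into another by its transposase, an enzyme that binds the inverted repeats at the ends of the element. Many rows describe short elements that kept the ends and lost the gene, and depended on an enzyme made elsewhere. The hAT superfamily, named after hobo, Activator and Tam3, includes the Charlie, Tip100 and Blackjack families, and the Tc1/mariner superfamily includes Tigger, Mariner and Tc2. None of these families is known to move in the mouse today, and their copies lie scattered as fossils through introns and intergenic DNA. A row sums the reads over all copies of a subfamily, so it has no single coordinate, and reads from a fossil inside a longer primary transcript cannot be told apart from RNA begun in the element itself. In bulk RNA, fewer cells of a type and less RNA per cell cannot be told apart either.

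RNA from DNA transposons was more abundant after genistein. Summed over the 280 rows, the class held 57456 and 58792 raw counts in untreated cells, compared with 99759 and 92482 in treated cells. These were 0.187 and 0.203% of all counts in untreated cells and 0.317 and 0.323% in treated cells. Normalized counts, which are scaled to a common effective library size, summed to 59819 ± 3427 in untreated and 93577 ± 46.2 in genistein-treated cells (SD, n = 2 each), a fold of 1.56 and a log2 ratio of 0.65. Both genistein libraries lay above both untreated ones. The increase is relative to genes and repeats combined: scaled on repeats alone, the log2 ratio was -0.05, and the summed ratios of 9 of 18 families turned negative, those of hAT-Charlie and TcMar-Tigger included. The smallest two-sided p of an exact permutation test with 2 libraries a group is 0.333, and sums over rows were given no other test.

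The increase was spread over families and was not carried by the most abundant subfamily. Of the 20 families with any count, 18 had larger summed normalized counts in each genistein library than in any untreated one. The rodent pair URR1A and URR1B alone held 42.8 to 43.3% of the untreated and 41.9 to 42.0% of the genistein DNA transposon counts. Without the pair, the log2 ratio of the remaining sum was 0.67.

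**Figure D1:**
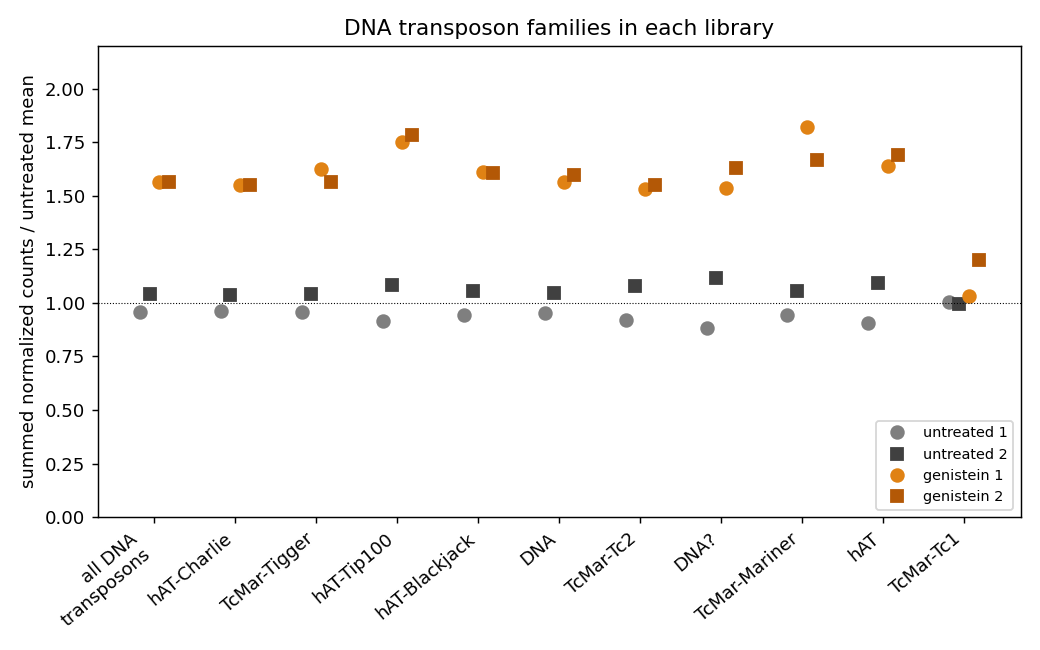
Summed normalized counts of all DNA transposon rows and of 10 families in each of the 4 libraries, divided by the mean of the 2 untreated libraries (vertical axis, a ratio with no unit). In most families the genistein points sit between 1.5 and 1.8 and apart from the untreated points, whereas TcMar-Tc1 sits at 1.03 and 1.20. The scale is that of genes and repeats together.

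Row by row, 167 of the 213 tested DNA transposon rows rose (adjusted p under 0.05, from edgeR's quasi-likelihood F-test, Benjamini-Hochberg adjusted over every gene and repeat tested), 1 fell and 45 did not pass the test. The share that rose was 78.4%. Over all 17358 genes and repeats tested, 36.2% rose and 36% fell by the same rule. Over the 1118 tested repeats alone, 76.3% rose and 2.86% fell, so the share among DNA transposons was near that of repeats in general. The median log2 fold change of the tested rows was 0.71, with quartiles of 0.54 and 0.94 and a range from -0.30 to 2.10. Over all tested repeats the median was 0.69, and over all tested genes -0.03. The 2.10 belongs to MamTip2, which passed the filter on low counts only through its genistein libraries. Fewer DNA transposon rows rose with DESeq2, the tool of the study, as given in the part on processing.

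Separation of the libraries gave a similar count. In 186 tested rows (87.3%) both genistein libraries lay above both untreated ones, in 25 the groups overlapped and in 2 both genistein libraries lay below. The same separation was found in 43.4% of all entries and 83.8% of all repeats tested. The filter on low counts favours rows that were high in 1 group. For 11 of the tested rows both untreated libraries were under the filter's minimum, so only genistein counts let them be tested. They were MamTip2, MamTip2b and EuthAT-N1 of hAT-Tip100, Charlie7a and Charlie30a of hAT-Charlie, and X1_DNA of TcMar-Tigger. The others were Eulor11 and Eutr2B of family DNA, and UCON7, Eulor10 and EUTREP4 of class DNA?. Rises among these 11 carry no weight of their own, also where they are counted in levels and families below. Over the 267 rows with any count, tested or not, 205 were separate and higher, 57 overlapped and 5 were separate and lower. The 54 rows that were not tested had mean normalized counts of 0.234 to 11.04, with 19 higher, 32 overlapping and 3 lower. No share over all repeats with any count stands beside these splits, so they are not read as a trait of DNA transposons.

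The size of the increase hardly depended on the level of the row, while its error did. The 14 rows with a mean over 1000 normalized counts, which together held 73.4 to 73.9% of all DNA transposon counts, all rose, with log2 fold changes between 0.58 and 0.79 and a median SE of 0.05. Of the 65 rows between 100 and 1000, 61 rose, 1 fell and 3 did not pass, with a median of 0.70 and a median SE of 0.13. Among the 134 tested rows under 100, 92 rose and 42 did not pass, with a median of 0.75, a range from -0.30 to 2.10 and a median SE of 0.23. The wide range is thus found where the counts are small. Across the 213 tested rows, Spearman's rho between log2 fold change and mean normalized count was -0.10, a description across rows that share the same 4 libraries.

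**Figure D2:**
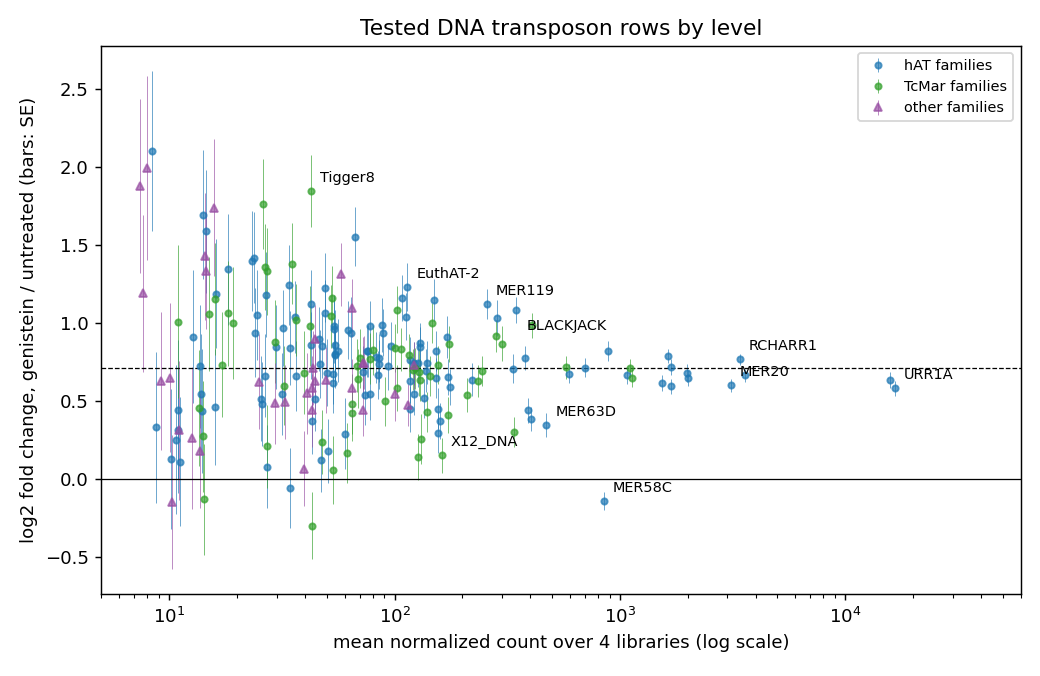
Log2 fold change (genistein over untreated, vertical axis, bars showing SE) against the mean normalized count over 4 libraries (horizontal axis, log scale) for the 213 tested DNA transposon rows, with color and shape showing the superfamily. The dashed line is the median of 0.71. The points narrow towards it as the level grows, and MER58C lies below 0 at a log2 fold change of -0.14.

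The replicates of a group differed less than the groups did. Untreated library 2 was the higher of its pair in all 14 rows over 1000 normalized counts, with a median absolute difference of 0.12 on the log2 scale. The genistein pair differed by a median of 0.015 in the same rows. Leaving out untreated library 1 lowered the log2 ratio of the summed class to 0.58 and leaving out untreated library 2 raised it to 0.70.

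The hAT superfamily supplied most of the signal, 86.7 to 87.2% of DNA transposon counts in every library, and the hAT-Charlie family by itself supplied 81.2 to 82.3%. Charlie elements are an old mammalian hAT family, and the MER names (medium reiterated repeats) in it are mostly shortened Charlie relatives without a transposase gene. hAT-Charlie summed to 47223 and 50876 normalized counts in untreated and 75951 and 76141 in treated cells, a log2 ratio of 0.63. Of its 79 rows 70 were tested: 61 rose, 1 fell and 8 did not pass, with a median log2 fold change of 0.68. Counts of risen rows here and in the groups below stand beside the 76.3% of all tested repeats that rose.

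URR1A was the most abundant row of the class. It is a rodent hAT element with no transposase of its own, and it had 12904 and 13806 normalized counts in untreated and 19996 and 20000 in genistein-treated cells. URR1B, its close relative, had 11932 and 12852 against 19189 and 19303. The log2 fold changes were 0.58 ± 0.05 for URR1A and 0.64 ± 0.05 for URR1B (SE), with adjusted p of 1.8e-08 and 7.1e-09 in edgeR's quasi-likelihood F-test, Benjamini-Hochberg adjusted. The libraries of the 2 groups were well apart in both rows. Reads from such close relatives can be shared between their rows by the counting, so the 2 values are not independent.

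The next rows by level were also hAT-Charlie. Charlie1a, which belongs to the Charlie elements proper, had 2670 and 2918 normalized counts in untreated and 4420 and 4432 in treated cells (log2 fold change 0.66 ± 0.04 SE). RCHARR1, a Charlie-derived repeat, had 2466 and 2560 against 4268 and 4292 (0.77 ± 0.04). MER20, a short hAT element found across placental mammals, had 2366 and 2569 against 3777 and 3703 (0.60 ± 0.04). In each of these rows the genistein libraries agreed closely and lay far above both untreated libraries. MER58B had 1462 and 1657 against 2417 and 2466, MER58A 1387 and 1657 against 2431 and 2433, and RMER30 1281 and 1413 against 1993 and 2075. MER33 had 1201 and 1356 against 2112 and 2087, and MER5A, with the largest change of the 10 most abundant rows, 1149 and 1239 against 2054 and 2073 (0.79 ± 0.05). Over these 10 rows the adjusted p lay between 1.1e-11 and 2.7e-08 (edgeR's quasi-likelihood F-test, Benjamini-Hochberg adjusted).

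hAT-Tip100, the family of the Arthur, Zaphod and ORSL elements, held far fewer reads. Its sums were 1019 and 1205 normalized counts in untreated and 1945 and 1985 in genistein-treated cells, a log2 ratio of 0.82. Of its 43 rows 27 were tested, 19 rose and 8 did not pass, with a median log2 fold change of 0.84. The risen rows include MamTip2 and MamTip2b, which were tested only through their genistein counts, so their rises add no support. The most abundant Tip100 row was MER115, at 117 and 147 against 175 and 185 (0.45 ± 0.13, adjusted p = 0.0052 in edgeR's quasi-likelihood F-test, Benjamini-Hochberg adjusted), a smaller change than in most of the family. MER115 no longer passed without untreated library 1 (adjusted p = 0.071) or with DESeq2 (adjusted p = 0.066).

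hAT-Blackjack, with 8 rows, all tested, summed to 1016 and 1136 against 1733 and 1729, a log2 ratio of 0.69, and 7 of its rows rose. Its rows differed among themselves. BLACKJACK, the element with the family's name, went from 222 and 221 to 461 and 477 normalized counts, whereas MER63D, its most abundant row, went from 385 and 447 to 535 and 521. The log2 fold changes were 1.08 ± 0.08 and 0.35 ± 0.08. The other MER63 rows lay between, at 0.78 for MER63A, 0.76 for MER63B and 0.65 for MER63C.

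The smaller hAT families followed the same direction. hAT-Ac had 2 tested rows of 3, both rose, and its sums were 118 and 138 against 241 and 280. The family written simply hAT summed to 297 and 358 against 536 and 554, and MER53, its main row, had 231 and 279 against 414 and 417 (0.71 ± 0.09). The uncertain family hAT? summed to 202 and 238 against 386 and 409. In it MER121, an element kept unusually well between mammals, had 99.9 and 138 against 219 and 227 (0.91 ± 0.13). hAT-5_Mam, the one hAT-Tag1 row, had 84.9 and 105 against 143 and 175, and hAT-N1_Mam of hAT-Tip100? had 55.9 and 65.6 against 98.5 and 110. Both rose, although only 1 of the 3 tested hAT-Tip100? rows did.

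Tigger elements, whose transposase is of the pogo kind, formed the second family by level. TcMar-Tigger summed to 5380 and 5838 normalized counts in untreated and 9109 and 8778 in genistein-treated cells, 9.37 to 9.74% of DNA transposon counts and a log2 ratio of 0.67. Of 46 tested rows out of 48, 36 rose and 10 did not pass, with a median log2 fold change of 0.71. Tigger5b_Glire, named for the rodents and rabbits, had 835 and 926 against 1401 and 1353 (0.65 ± 0.06), and Tigger17a had 798 and 881 against 1368 and 1379 (0.71 ± 0.06). The groups did not overlap in either row.

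The remaining Tc1/mariner families were small. All 4 TcMar-Mariner rows rose, with log2 fold changes from 0.73 to 0.87 and sums of 415 and 465 against 800 and 733. MMAR1, the most abundant of them, had 198 and 229 against 429 and 347. In TcMar-Tc2, the family of the Kanga elements, 5 of 7 tested rows rose, the sums were 416 and 489 against 694 and 700, and MER104 had 119 and 127 against 218 and 231. The 2 tested rows of the family written TcMar rose, among them X4b_DNA with 20.0 and 37.1 against 53.4 and 58.7.

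TcMar-Tc1 had the lowest ratio of summed counts among the 18 families with a tested row. Its sums were 94.9 and 94.2 normalized counts in untreated and 97.5 and 113 in genistein-treated cells, a log2 ratio of 0.16 that moved between 0.05 and 0.27 when single genistein libraries were left out. Its main row EutTc1-N2 had 47.0 and 47.6 against 34.7 and 42.5, so both genistein libraries were lower, but the difference did not pass the test (-0.30 ± 0.21, adjusted p = 0.22, edgeR's quasi-likelihood F-test, Benjamini-Hochberg adjusted). The other tested rows of the family, X32_DNA and X33a_DNA, rose. Whether the family differs from the others was not tested.

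**Figure D3:**
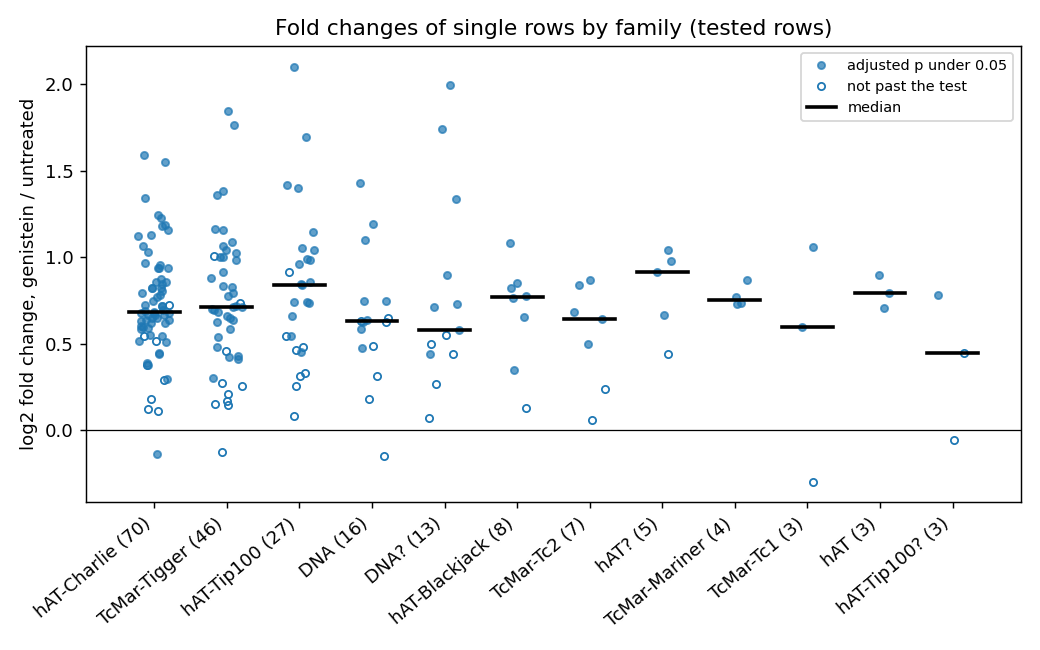
Log2 fold change of each tested row (points, genistein over untreated, vertical axis) by family for the 12 families with at least 3 tested rows, the number of tested rows in brackets. Filled points passed the test at an adjusted p under 0.05, open points did not, and the bars are family medians, which run from 0.45 for hAT-Tip100? to 0.91 for hAT?.

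Families outside both superfamilies had few reads. Looper, the PiggyBac row, had 85.9 and 76.2 normalized counts against 99.4 and 139 (0.54 ± 0.17, adjusted p = 0.0096, edgeR's quasi-likelihood F-test, Benjamini-Hochberg adjusted), but its adjusted p was 0.21 without genistein library 2 and 0.079 with DESeq2. UCON29, the Kolobok row, had 32.97 and 33.88 against 92.8 and 72.9 (1.31 ± 0.20). The 25 rows of family DNA, which have no closer assignment, summed to 473 and 518 against 775 and 792, and 9 of 16 tested rows rose. MER126, the most abundant of them, had 99.9 and 92.1 against 131 and 136, and its adjusted p with DESeq2 was 0.089. PIF-Harbinger had 1 read in all 4 libraries together, TcMar-Pogo had none, and TcMar? had 4.

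Rows of the doubtful class DNA? held few reads. They are mostly Eulor and UCON elements, which are old sequences recognized because they are conserved between distant vertebrates. Of 30 rows 15 were tested and 4 were at 0. Among the tested rows 9 rose and 6 did not pass, with a median log2 fold change of 0.58. The 9 include UCON7, Eulor10 and EUTREP4, whose untreated libraries were all under the filter's minimum. These rows were tested only through genistein counts, so their rises add no support to the count. Eulor5A, the most abundant, had 77.9 and 106 normalized counts against 157 and 147 (0.73 ± 0.15). Eulor10 had 0.999 and 5.29 against 11.3 and 14.2, and EUTREP4 of PiggyBac? had 2.00 and 4.23 against 10.3 and 13.2. Both rows passed the filter on low counts through the genistein group, so their calls carry no weight of their own. Their log2 fold changes of 1.99 and 1.88 rest on a handful of reads, and EUTREP4 no longer passed without untreated library 1 (adjusted p = 0.11, edgeR's quasi-likelihood F-test, Benjamini-Hochberg adjusted) or with DESeq2 (adjusted p = 0.0995).

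With the study's own cutoffs (adjusted p under 0.05, log2 fold change past 1 in size, mean above 100 normalized counts) 9 of the 213 tested rows were higher, 4.23%. Over all entries 3.91% passed these cutoffs in the same direction, and over all repeats 3.67%. The 9 rows came from 5 families, 3 from hAT-Charlie, 2 each from hAT-Tip100 and TcMar-Tigger and 1 each from hAT-Blackjack and hAT-Ac. EuthAT-2, a placental mammal hAT element, had the largest change, from 60.9 and 75.2 to 146 and 173 normalized counts (1.23 ± 0.15, adjusted p = 2.3e-06 in edgeR's quasi-likelihood F-test, Benjamini-Hochberg adjusted). MER5C, a relative of MER5A, went from 60.9 and 73.0 to 149 and 150 (1.16 ± 0.15). The Tip100 element Arthur2 went from 80.9 and 106 to 212 and 200 (1.15 ± 0.14). In all 3 rows both genistein libraries lay above both untreated ones, as they did in 76 of the 79 tested rows over 100 normalized counts. Over tested repeats of every level the share was 83.8%. A share over repeats above 100 normalized counts is not given, so the 76 is not read as a trait of these rows.

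MER119 went from 161 and 163 to 355 and 349 (1.12 ± 0.09), and BLACKJACK has been described above. Tigger6b went from 59.9 and 70.9 to 143 and 135, Arthur1 from 66.9 and 80.5 to 143 and 161, MER103C from 157 and 218 to 375 and 389, and Tigger12c from 104 and 91.0 to 202 and 189. The last 3 lay just past the fold cutoff, with log2 fold changes of 1.04, 1.03 and 1.00. Just under it were Tigger13a at 0.98, MER46C at 0.92 and MER121 at 0.91. Without untreated library 1 only 5 rows passed all cutoffs.

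Rows under 100 normalized counts cannot pass these cutoffs whatever their change, and 3 of them were picked out after their values were seen. Tigger8 went from 19.0 and 18.0 to 63.8 and 69.8 (1.84 ± 0.23), Tigger17b from 10.99 and 12.70 to 40.3 and 40.5 (1.76 ± 0.29), and Charlie25 from 30.0 and 38.1 to 104 and 95.1 (1.55 ± 0.19). The replicates of each group agreed well in all 3 rows. The largest estimate of all, 2.10 ± 0.51, was that of the Tip100 row MamTip2, also named afterwards. It rests on 2.997 and 3.176 normalized counts against 13.13 and 14.17. With 3 raw counts in each untreated library, MamTip2 passed the filter on low counts through the genistein group. Its call carries no weight of its own.

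MER58C was the single DNA transposon row that fell, and it did so among relatives that rose. MER58 elements are short hAT-Charlie derivatives, and the table separates them into MER58A to MER58D. MER58C had 902 and 871 normalized counts in untreated and 788 and 826 in genistein-treated cells. Its log2 fold change was -0.14 ± 0.06, with an adjusted p of 0.041 in edgeR's quasi-likelihood F-test, Benjamini-Hochberg adjusted. MER58A and MER58B rose by 0.68 and 0.65 on the log2 scale, and MER58D, which went from 169 and 178 to 254 and 285, by 0.64 ± 0.10. The fall of MER58C was small and did not pass with library totals as scale (-0.07, adjusted p = 0.33), with DESeq2 (-0.15, adjusted p = 0.18), or without untreated library 1 or genistein library 1 (adjusted p = 0.16 and 0.22). The difference between MER58C and the other MER58 rows was not tested by itself.

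**Figure D4:**
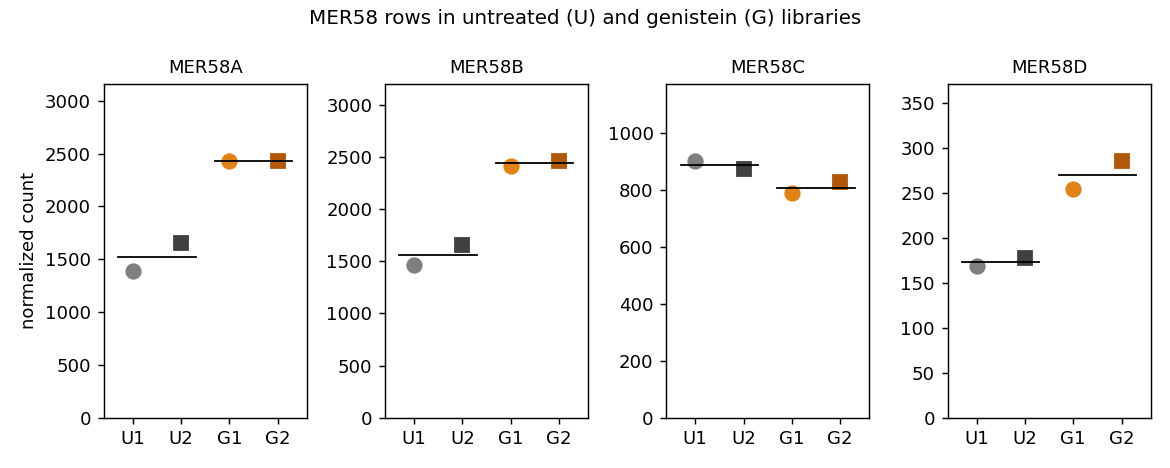
Normalized counts of MER58A, MER58B, MER58C and MER58D in the untreated (U1, U2) and genistein (G1, G2) libraries, each panel with its own vertical axis starting at 0 and lines at the group means. In MER58C the genistein points of 788 and 826 lie below the untreated points of 902 and 871, while in the other panels they lie above.

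A few other well counted rows hardly moved. X12_DNA, a Tigger-family row, had 156 and 150 normalized counts against 169 and 172, and Tigger19b had 119 and 124 against 153 and 114. Their log2 fold changes were 0.15 ± 0.11 (adjusted p = 0.23) and 0.14 ± 0.15 (adjusted p = 0.39) in edgeR's quasi-likelihood F-test, Benjamini-Hochberg adjusted. In X12_DNA the genistein libraries were slightly higher, and in Tigger19b the groups overlapped. Without genistein library 1 the sign of Tigger19b turned, to -0.08.

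Because most repeats moved together, rows were also compared within the repeats alone, with normalization factors and tests from repeat rows only. On that scale the typical repeat is held constant, and the median log2 fold change of DNA transposons became 0.02. Of 207 rows tested, 9 were higher (4.35%) and 10 lower (4.83%), beside 7.89% higher and 14.7% lower over all 1103 repeats in that fit. The 9 higher rows were Tigger8, Tigger17b, Charlie25, EuthAT-2, MER5C, Arthur2, MER119, BLACKJACK and Tigger13a. The 10 lower rows were MER58C, EutTc1-N2, Tigger19b, X12_DNA, MER117, Tigger2b, MER63D, Cheshire, Charlie4a and URR1A. MER58C was the most strongly separated of them by p, with a log2 fold change of -0.84 and an adjusted p of 2.5e-06 (edgeR's quasi-likelihood F-test, Benjamini-Hochberg adjusted). URR1A was lower by 0.11 on this scale, so relative to other repeats the most abundant row changed slightly less than the typical one.

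The DNA transposon sum moved by about the same amount as the sums of other old interspersed repeats. Ancient LINE rows (L2, CR1 and RTE), remains of old retrotransposons, had a log2 ratio of summed counts of 0.67, and 21 of their 27 tested rows rose. MIR, an old mammalian SINE, had 0.70, with all 5 rows rising. The ratio of DNA transposon to ancient LINE counts was 13.3 and 12.9 in untreated and 12.9 and 12.8 in genistein-treated cells, so the groups overlapped. To MIR it was 3.95 and 4.02 against 3.76 and 3.90, slightly lower after genistein. Here the groups were apart by less than the libraries within either pair differed.

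Among the other classes, LINE rows as a whole had a log2 ratio of 0.74, LTR rows 0.60 and SINE rows 0.49. The ratio of DNA transposon to LINE counts was 0.273 and 0.274 in untreated and 0.253 and 0.259 in treated cells, and to SINE counts 0.0713 and 0.0730 against 0.0790 and 0.0816. To LTR counts it was 0.156 and 0.160 against 0.161 and 0.166. The ratios to LINE, SINE and LTR counts were separate between the groups, lower after genistein for LINE and higher for SINE and LTR. For LTR the groups were only just apart, by less than the libraries within either pair differed.

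Against the plain sum of all other repeats, DNA transposons gained more. That ratio was 0.0159 and 0.0165 in untreated and 0.0221 and 0.0244 in treated cells, 1.44 times higher on average. Their share of all repeat counts went from 1.56 and 1.62% to 2.17 and 2.38%. This sum weights each row by its reads, whereas the scale from repeats alone follows the typical row, and the log2 ratio on that scale was -0.05. The sum of all other repeats had a log2 ratio of 0.13, below the 0.74, 0.60 and 0.49 of LINE, LTR and SINE rows. These classes held only 5.71, 10.0 and 21.9% of repeat counts in untreated library 1. The low ratio of the whole sum thus comes from repeats of other classes, and DNA transposons did not gain on LINE or MIR rows. None of these ratios was tested.

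**Figure D5:**
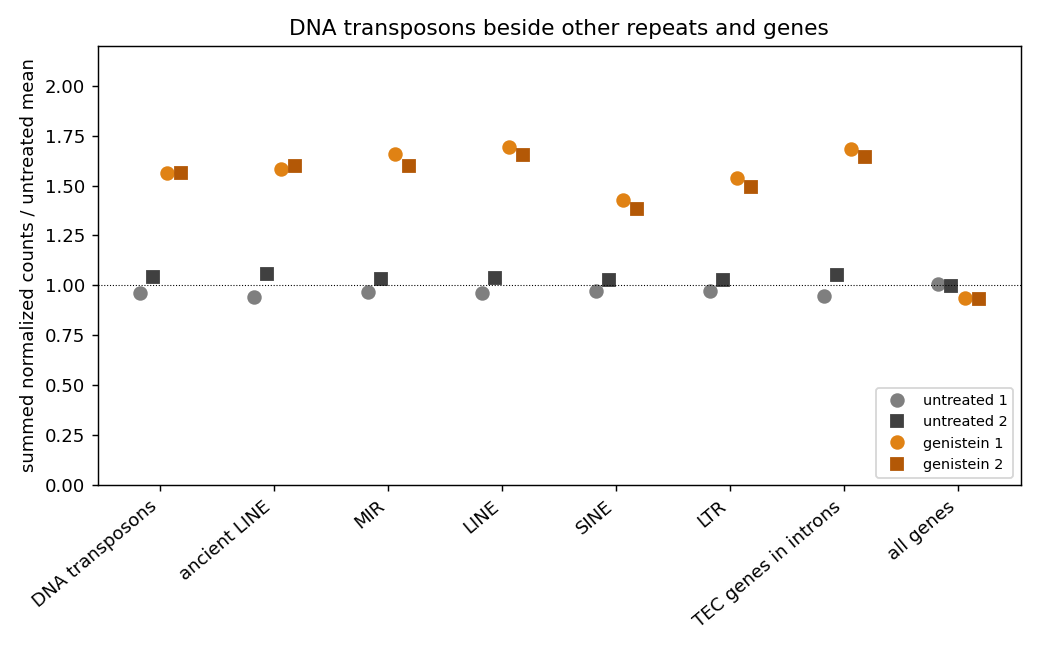
Summed normalized counts of DNA transposons, other repeat groups, TEC genes inside introns and all genes in each library, divided by the mean of the 2 untreated libraries (vertical axis, a ratio with no unit). DNA transposons sit at 1.56 in both genistein libraries, between SINE rows at 1.43 and 1.38 and LINE rows at 1.69 and 1.66, while all genes sit at 0.936 and 0.930.

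RNA of unclassified single-exon transcripts, inside and outside introns, moved in the same direction. Gencode's TEC class holds mostly single-exon transcripts that await experimental testing, and 581 tested TEC genes lay wholly inside introns of protein-coding genes without touching a coding gene's exon. Relative to their untreated mean, their summed normalized counts were 0.949 and 1.05 in untreated and 1.68 and 1.64 in genistein-treated cells, with a median log2 fold change of 0.80. The 113 TEC genes outside coding genes summed to 6697 and 7102 normalized counts in untreated and 10349 and 10015 in treated cells, with a median log2 fold change of 0.38. In both sets the groups did not overlap. The table does not say which transposon copies lie in introns, and the part of intronic RNA in the rise of DNA transposon rows was not tested.

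Genes that mammals derived from DNA transposon proteins did not share the increase. These are single-copy genes, long under selection, that encode DNA-binding and regulatory proteins. Of 35 genes in the list 30 were tested, 7 rose, 19 fell and 4 did not pass, beside 33.5% rising and 38.2% falling among all 16240 genes tested. The median log2 fold change of the list was -0.29. Rag1, Rag2, Pgbd1, Pgbd5 and Tigd4, among them both recombinase genes of lymphocytes, had few reads or none and were not tested.

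By origin, the 8 hAT-derived genes divided evenly, 4 rising and 4 falling. Zbed3, a BED zinc finger gene, went from 290 and 336 to 600.1 and 504 normalized counts (0.83 ± 0.09, adjusted p = 7.5e-07), and Zmym6, a zinc finger MYM gene, from 598 and 574 to 996 and 1010 (0.77 ± 0.06, adjusted p = 4.4e-09), in edgeR's quasi-likelihood F-test, Benjamini-Hochberg adjusted. Zbed6, which encodes a repressor of Igf2, rose by 0.18 on the log2 scale, and Zbed5 fell by 0.46. Of the 8 tested genes of Pogo or Tigger origin, 2 rose, 4 fell and 2 did not pass. Jrkl rose by 0.34, Pogk went from 1560 and 1531 to 1079 and 1076 (-0.52 ± 0.05), and Cenpb, which encodes the centromere protein that binds satellite DNA, fell by 0.43.

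Of the 2 Harbinger-derived genes 1 rose and 1 fell. Harbi1 went from 205 and 185 to 305 and 312 (0.66 ± 0.10), and Naif1, named after its values were seen, from 265 and 270 to 222 and 207 (-0.31 ± 0.10). Genes with the THAP domain, a DNA-binding fold shared with the P element transposase, mostly fell, 6 of 7, with a median of -0.44. Thap12 (GRCm38 chr7:98703103-98718062) went from 3698 and 3676 to 2387 and 2473 (-0.60 ± 0.04, adjusted p = 2.5e-10, edgeR's quasi-likelihood F-test, Benjamini-Hochberg adjusted). Thap11, which encodes the stem cell factor Ronin, fell by 0.55, and Thap1 fell by 0.52. Of 5 genes of Crypton origin 4 fell and 1 did not pass.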

How the data were processed

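Total RNA of 4 libraries was depleted of ribosomal RNA and sequenced as read pairs. Per the study's methods, the authors trimmed reads with Trim Galore, aligned them to mm10 with STAR keeping multiply aligned reads, and counted genes (Gencode) and repeat subfamilies (RepeatMasker, modified for L1) with TEtranscripts. The deposited values are raw counts. The study's methods do not state how reads overlapping both gene exons and repeats were assigned. The strand setting of the counting is not given in the sources used here. A row with no name (0.00208 to 0.00314% of counts) was left out.

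Counts of 49382 entries were fitted in edgeR 4.0.16 (R 4.3.3) with TMM factors over genes and repeats. The default expression filter by group kept 17358, and Benjamini-Hochberg adjustment ran over them. Normalized counts are counts over effective library size times the mean effective size. SE was derived from the fold change and its F statistic. DESeq2 1.42.0 was an alternative among 13. Named rows were those past all cutoffs, the 5 largest called changes each way among rows over 100 normalized counts with separate groups, the 10 most abundant, the main row of each family, rows of class DNA? and the 3 smallest changes over 100 normalized counts. For transposase-derived genes, up to 5 each way were named. Some entries were given outside these rules, such as the genes Cenpb and Naif1 and the rows Tigger17a, MER58D, MER46C and MER63A to MER63C. Members and lists were chosen with earlier results of these data known. Replicate libraries differed by more than sampling noise, with a chi-square over its degrees of freedom of 5.76 (untreated) and 13.2 (genistein). Only the edgeR fit was tested on simulated counts, with planted changes larger than most of those reported here. Gene coordinates are from Gencode for GRCm38, the mm10 build. No transposon sequence was analysed here.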

Additional observations from a re-analysis of the deposited data

How the results depend on the processing

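Scale mattered most. With repeats fitted alone, 9 DNA transposon rows rose instead of 167, 10 fell instead of 1, 0 passed all cutoffs (largest absolute log2 fold change over 100 normalized counts 0.84), the median log2 fold change was 0.017 and the log2 ratio of the sum -0.051. By construction that fit centres on the typical repeat. It also turned the summed ratio of families DNA (-0.034), DNA? (-0.029), PiggyBac (-0.15), TcMar-Tc1 (-0.54), TcMar-Tc2 (-0.070), TcMar-Tigger (-0.024), hAT-Blackjack (-0.0096), hAT-Charlie (-0.064) and hAT-Tip100? (-0.15), and the log2 fold change of URR1A (-0.11), URR1B (-0.061), Charlie1a (-0.032), MER20 (-0.10), MER58B (-0.049), MER58A (-0.017), RMER30 (-0.10), Tigger5b_Glire (-0.051), MER63D (-0.35), X12_DNA (-0.54), MER115 (-0.24), Tigger19b (-0.55), MER126 (-0.23) and Looper (-0.15). With library totals as scale the log2 ratio of the sum was 0.72. The count of rows that fell was 0 with library totals, TMM factors from genes and DESeq2 (also 0 at an unadjusted p under 0.05) and 0 with the replicate block (1 unadjusted). The rows that rose numbered 117 with DESeq2, the tool of the study, and 164 with the replicate block, of 213 tested in each fit. No pairing by replicate number was seen (correlation of deviations -0.03). A mean over 10 normalized counts let 39 rows pass all other cutoffs, and an absolute log2 fold change over 0.5 let 64 pass. Leaving out each library in turn gave 144 to 166 rows that rose, 0 to 2 that fell, 5 to 11 past all cutoffs, a median of 0.63 to 0.83, a log2 ratio of the sum of 0.58 to 0.70 and Tigger19b from -0.080 to 0.33. Outside the repeats-alone fit, 396 of 410 values for 41 named rows kept direction and side of the threshold. Apart from the repeats-alone fit, no share over all repeats stands beside the counts of rows in these other fits and cutoffs. Such counts show only how the number depends on the processing. Low counts limit rows under 100, and 2 libraries a group limit all tests.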

Other observations

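Helitrons, which spread by rolling-circle replication and carry the class RC, are a separate kind of DNA element and were not counted among the 280 rows. Of 4 Helitron rows 3 were tested, and these 3 rose. Helitron3Na_Mam went from 19.0 and 31.8 to 47.8 and 64.8 normalized counts (log2 fold change 1.15 ± 0.26 SE, adjusted p = 9.7e-04, edgeR's quasi-likelihood F-test, Benjamini-Hochberg adjusted). Helitron2Na_Mam went from 11.99 and 22.23 to 32.8 and 28.3 (0.85 ± 0.31), and Helitron1Nb_Mam from 3.996 and 3.176 to 13.1 and 16.2 (1.98 ± 0.49). Helitron1Na_Mam had 2 reads and 1 read in the genistein libraries and none in the untreated ones. Helitron1Nb_Mam, with 4 and 3 raw counts in the untreated libraries, passed the filter on low counts through the genistein group, so its call and the count of 3 carry no weight of their own.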
